A study of Saccharomyces cerevisiae with 24 samples.

Results

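The genes described here are 57 ribosome biogenesis factors of Saccharomyces cerevisiae, the nucleolar proteins that cut, modify and fold ribosomal RNA and assemble it with ribosomal proteins. They were taken from a fixed list of gene names, with 1 probe set per gene (the one with the highest mean), and are 57 of the 5449 genes measured on the L51 arrays and 57 of the 5656 measured on the MHY100 arrays. The list held 27 factors of the small ribosomal subunit, 19 factors of the large subunit, 6 core proteins of the small nucleolar ribonucleoprotein particles (snoRNPs) and 5 proteins that serve both subunits or are related to nucleolin. A narrower pair of lists set all UTP genes with IMP3, IMP4 and MPP10 (15 small-subunit genes) against NOP7, ERB1, YTM1 and EBP2 (4 large-subunit genes).

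Ribosomal RNA is made as a long precursor in the nucleolus. The small-subunit processome, a particle built from the UtpA, UtpB and UtpC modules, the Mpp10 complex and the U3 snoRNA, gathers on the precursor and makes the early cuts that release the small-subunit part, while other factors, among them the Nop7-Erb1-Ytm1 complex, build the large subunit. In yeast the genes for these proteins are known for being transcribed together, at a high level in fast growth and at a low level in stress or starvation.

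All L51 cells carried a deletion of the chromosomal HAP1 gene, which encodes a heme-binding transcription factor. Δhap1 cells held an empty vector, and HAP1 cells held a centromeric plasmid with the HAP1 genomic sequence, so HAP1 came from the plasmid in all HAP1 groups. The 6 L51 conditions, with 3 arrays each, were Δhap1 cells after 6 h without oxygen, Δhap1 cells in air, aerated HAP1 cells given 400 µM cobalt chloride during 6 h, HAP1 cells in air, and HAP1 cells after 1.5 and 6 h without oxygen. All L51 cells also held a plasmid with a CYC1-lacZ reporter, and the 3 arrays of a condition came from separately grown cells. MHY100 cells carry a hem1 deletion and need 5-aminolevulinic acid to make heme. They had 3 heme-deficient arrays (2.5 µg/ml 5-aminolevulinic acid) and 3 heme-sufficient arrays (250 µg/ml). The arrays of the 2 strains were of different types and were normalized apart, so each comparison stays within a strain.

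The deposited value is a probe set intensity, and all levels below are its log2. It is a relative amount in a whole culture, so a lower level in every cell and a change in only some of the cells cannot be told apart, and levels are compared within a probe set and never between genes. The plasmid label held in every L51 array, since HAP1 was at 5.76 to 6.57 in Δhap1 arrays and at 9.77 to 12.13 in HAP1 arrays. The oxygen label did not hold everywhere. The hypoxic genes ANB1 and DAN1 were at 9.02 and 8.01 on the replicate 3 array labelled 1.5 h, against 13.41 to 14.15 on the other 2 arrays of that group. The replicate 3 array labelled cobalt had ANB1 at 12.22 and CYC1, an oxygen-induced gene, at 9.41, against 9.49 to 9.64 and 13.46 to 13.51 on the other 2. Its DAN1, at 9.26, was near that of the other cobalt arrays (8.53 and 8.63) and below the anaerobic level. Whether the replicate 3 arrays of cobalt and 1.5 h were exchanged was not tested. The replicate 2 HAP1 air array stood apart in another way, with 67.55% of probe sets above the level of the S. pombe probe sets against 87.32% to 94.09% on the other 2. In the heme arrays ANB1 was at 12.51 to 13.15 in heme-deficient cells and at 7.47 to 8.44 in heme-sufficient cells. On the 18 L51 arrays 13 members were under the S. pombe level (the 95th percentile of the S. pombe probe sets) on at least 1 array, never on all 3 arrays of a group. Values under that level have no fixed size.

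In HAP1 cells without oxygen the 57 members stood lower at 6 h than at 1.5 h. The mean log2 level over the members was 12.11, 10.65 and 12.04 on the 3 air arrays, 12.77, 12.10 and 11.60 on the 1.5 h arrays and 10.91, 10.50 and 11.09 on the 6 h arrays. Every 6 h array lay below every 1.5 h array, whereas the replicate 2 air array lay among the 6 h arrays. All 57 members had a negative fold change at 6 h against 1.5 h, with a median of -1.23 against -0.23 over all genes, and 37 of them had 6 h arrays wholly below the 1.5 h arrays (17.7% of all genes did). By limma's moderated test with Benjamini-Hochberg adjustment over all 5449 genes, 36 of the 57 fell and none rose, where 15.3% of all genes were called, 11.7% as lower and 3.56% as higher. With a further quantile scaling, over S. cerevisiae probe sets only, 23 members fell. Over all genes 227 were then lower and 299 higher, against 638 lower and 194 higher with the values as deposited. The heat map of the members shows the same samples gene by gene.

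**Figure D1:**
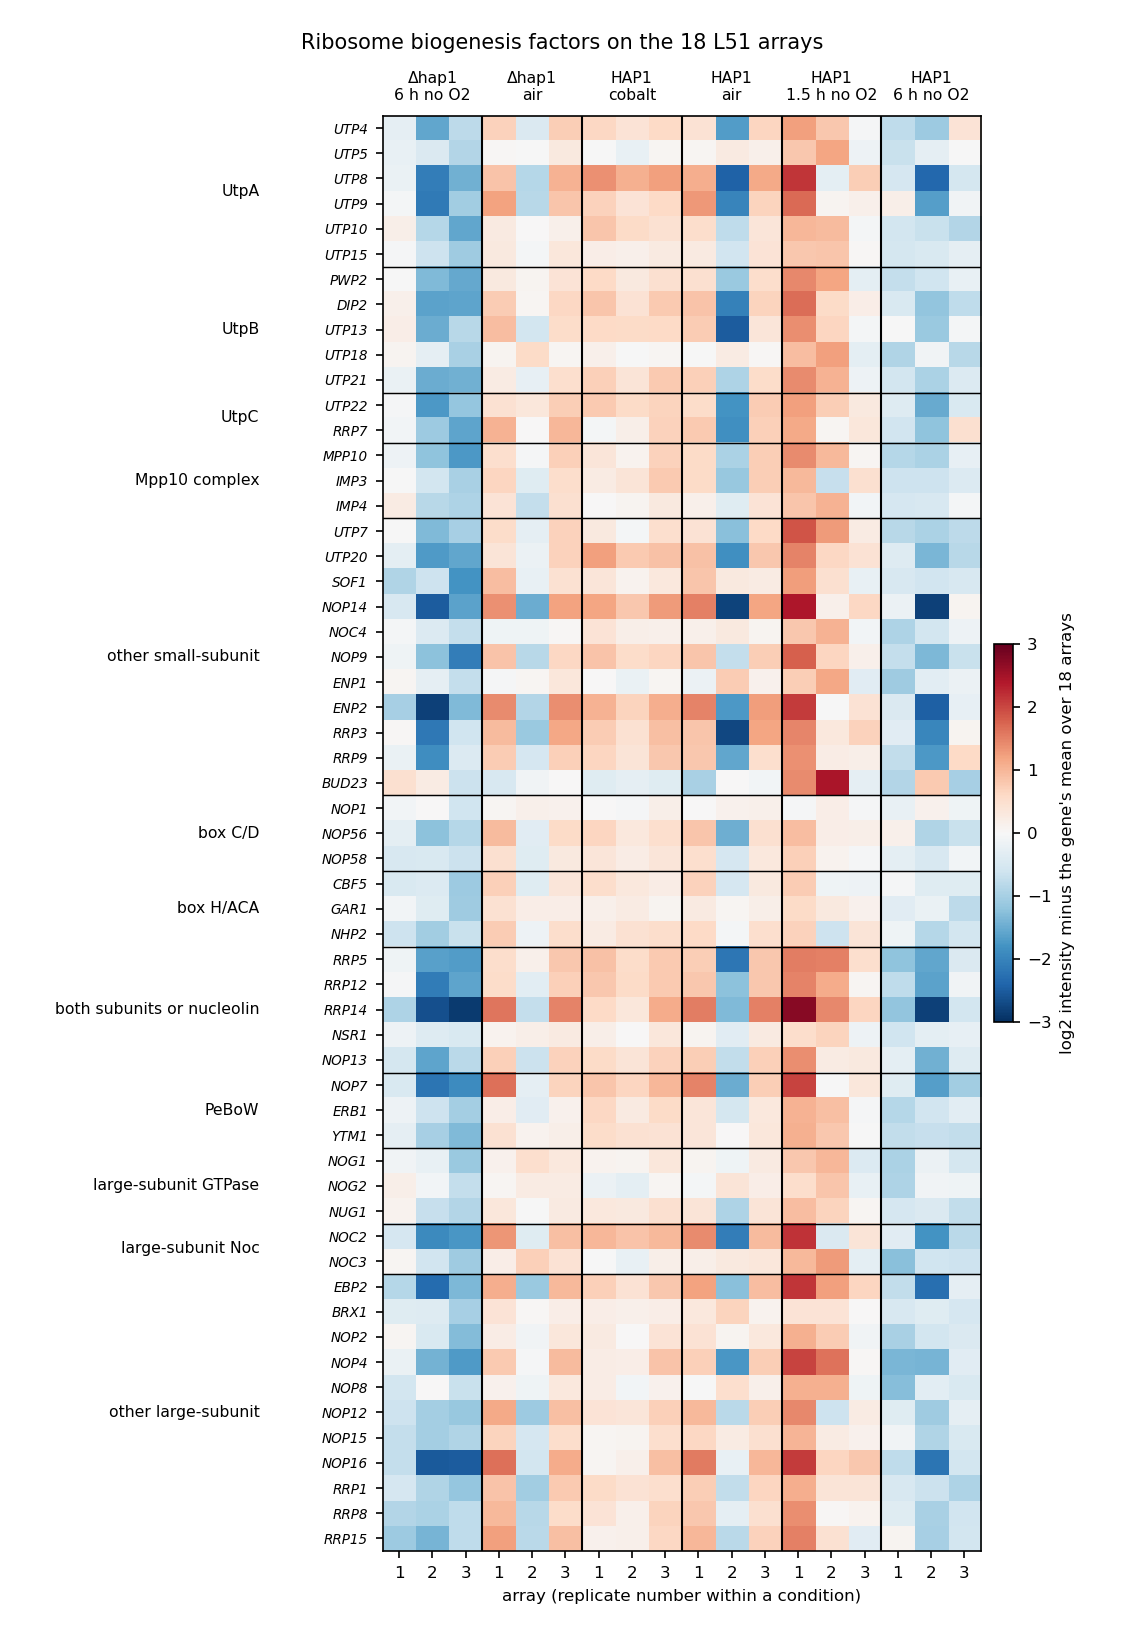
Each cell is the log2 intensity of 1 member (rows, grouped by role) on 1 of the 18 L51 arrays (columns, 3 replicates per condition) minus that gene's mean over the 18 arrays. The 6 h columns are mostly blue, the 1.5 h columns of replicates 1 and 2 mostly red, and the replicate 2 column of HAP1 cells in air stands apart from the other 2 air columns.

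These 36 calls depend on how the arrays were paired and on single arrays. With no replicate block, 0 of the 57 members and 0 of all genes were called, and the same held with only the 1.5 and 6 h arrays in the fit. With the hybridization round as the block 10 members were called (3.08% of all genes), although the median was larger in size, at -1.58. The count was also 0, for the members and for all genes, without the replicate 1 or replicate 2 array of either time. It was 28 to 50 without any other array. This range has no share of all genes beside it and is not read as a result about the members. The count was 45 without the 3 replicate 3 arrays whose labels are in doubt, when 26.6% of all genes were called. These are the 1.5 h and cobalt arrays above, and the 6 h array, where DAN1 was at 12.77 against 14.50 and 14.55 on the other 2. Taken replicate by replicate, the median of the members at 6 h minus 1.5 h was -1.79, -1.52 and -0.52, with 57, 56 and 48 of the 57 members lower. Replicate 2 was the only one whose 1.5 h and 6 h arrays were hybridized in the same round.

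The most negative fitted fold change was that of RRP14 (YKL082C), a nucleolar protein needed to make both subunits. RRP14 was at 8.38, 6.76 and 9.00 on the 6 h arrays, against 12.28, 10.99 and 10.19 on the 1.5 h arrays. The 2 times did not overlap, and the log2 fold change was -3.10 (SE 0.62, adjusted p = 0.0177). RRP14 was above the S. pombe level on 2 of the 3 arrays at 6 h, and with values under that level set to it the fold change was -2.51 (adjusted p = 0.0144). NOP16 (YER002W), a factor of early large-subunit particles, was at 9.07, 7.64 and 9.29 at 6 h, against 11.94, 10.47 and 10.64 at 1.5 h, again without overlap (-2.35, SE 0.44, adjusted p = 0.0177). RRP5, which acts in the processing of both subunit RNAs, fell by 2.25 (SE 0.58), and NOP4, an RNA-binding protein of large-subunit assembly, fell by 2.27 (SE 0.61). NOP16 too, like EBP2, UTP8 and NOP14 below, was above the S. pombe level on 2 of the 3 arrays at 6 h. With values under that level set to it the fold changes were -2.05 for NOP16, -2.24 for EBP2, -1.71 for UTP8 and -1.56 for NOP14, and 39 members fell, the 36 among them (16.2% of all genes were called).

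Among the processome genes, MPP10 (YJR002W), the scaffold of the Mpp10 complex, was at 9.11, 9.02 and 9.72 at 6 h, against 11.40, 10.94 and 10.03 at 1.5 h (-1.50, SE 0.44, adjusted p = 0.0382). The arrays of the 2 times did not overlap. Its partners IMP3 and IMP4, which bind the U3 snoRNA and the precursor, were not called, with fold changes of -0.80 for IMP3 (SE 0.39, adjusted p = 0.167) and -0.94 for IMP4 (SE 0.38, adjusted p = 0.0998). In the UtpA module, whose subunits bind the start of the precursor, UTP8 was at 9.58, 7.73 and 9.54 at 6 h, against 12.22, 9.78 and 10.81 at 1.5 h without overlap (-1.98, SE 0.52, adjusted p = 0.0301), while UTP5 at -0.93 missed the threshold (adjusted p = 0.0511). In UtpB both DIP2 (-1.62) and UTP18 (-1.24) fell, and in UtpC UTP22 fell by 1.54 while RRP7 was at -0.95 (adjusted p = 0.213). Of the remaining small-subunit factors NOP14 fell by 2.03 (SE 0.62), and ENP1 was at -1.04 (adjusted p = 0.0637). In all, 16 of the 27 small-subunit genes and 9 of the 15 in the narrower list fell.

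Of the 19 large-subunit genes, 15 fell, including all 4 of NOP7, ERB1, YTM1 and EBP2. NOP7 (YGR103W), the pescadillo homologue, was at 10.80, 9.50 and 10.10 at 6 h, against 13.17, 11.14 and 11.49 at 1.5 h (-1.80, SE 0.41, adjusted p = 0.0218). All its 6 h arrays were below its 1.5 h arrays. Its partners had smaller fold changes and also fell, by 1.22 for ERB1 (SE 0.31) and by 1.34 for YTM1 (SE 0.25). EBP2 (YKL172W), which works with the same early particles, was at 9.52, 8.01 and 9.98 at 6 h, against 12.40, 11.49 and 10.89 at 1.5 h, also without overlap (-2.42, SE 0.47, adjusted p = 0.0177). The 2 Noc proteins, which escort pre-ribosomes towards the nuclear pore, both fell (NOC2 by 1.69, NOC3 by 1.48). Among the assembly GTPases NUG1 fell by 1.11 (adjusted p = 0.035) and NOG2 was at -0.76 (adjusted p = 0.094). BRX1, with the smallest change of its class, still fell by 0.73 (SE 0.20).

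The snoRNP core proteins had the smallest fold changes. Of 6, only GAR1, a subunit of the box H/ACA particles that guide pseudouridylation, fell (by 0.78, SE 0.21, adjusted p = 0.0307), and the median of the 6 was -0.61, nearer to 0 than that of either subunit group (-1.29 for the 27 small-subunit genes and -1.23 for the 19 large-subunit genes). NOP1 (YDL014W), the fibrillarin methyltransferase of the box C/D particles, was at 13.99, 14.33 and 14.07 at 6 h, against 14.18, 14.41 and 14.17 at 1.5 h, 2 ranges that overlap (-0.12, SE 0.18, adjusted p = 0.67). CBF5, the pseudouridine synthase, was at -0.42 (SE 0.27, adjusted p = 0.296), and NSR1, the yeast nucleolin, at -0.72 (SE 0.24, adjusted p = 0.0564). Across the 57 members the fold change at 6 h against 1.5 h went with the mean level of the probe set (Pearson r = 0.71, against 0.15 over all 5449 genes), the brighter probe sets moving less. The points share their arrays, and the part of probe brightness in the difference between snoRNP genes and the rest was not tested.

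**Figure D2:**
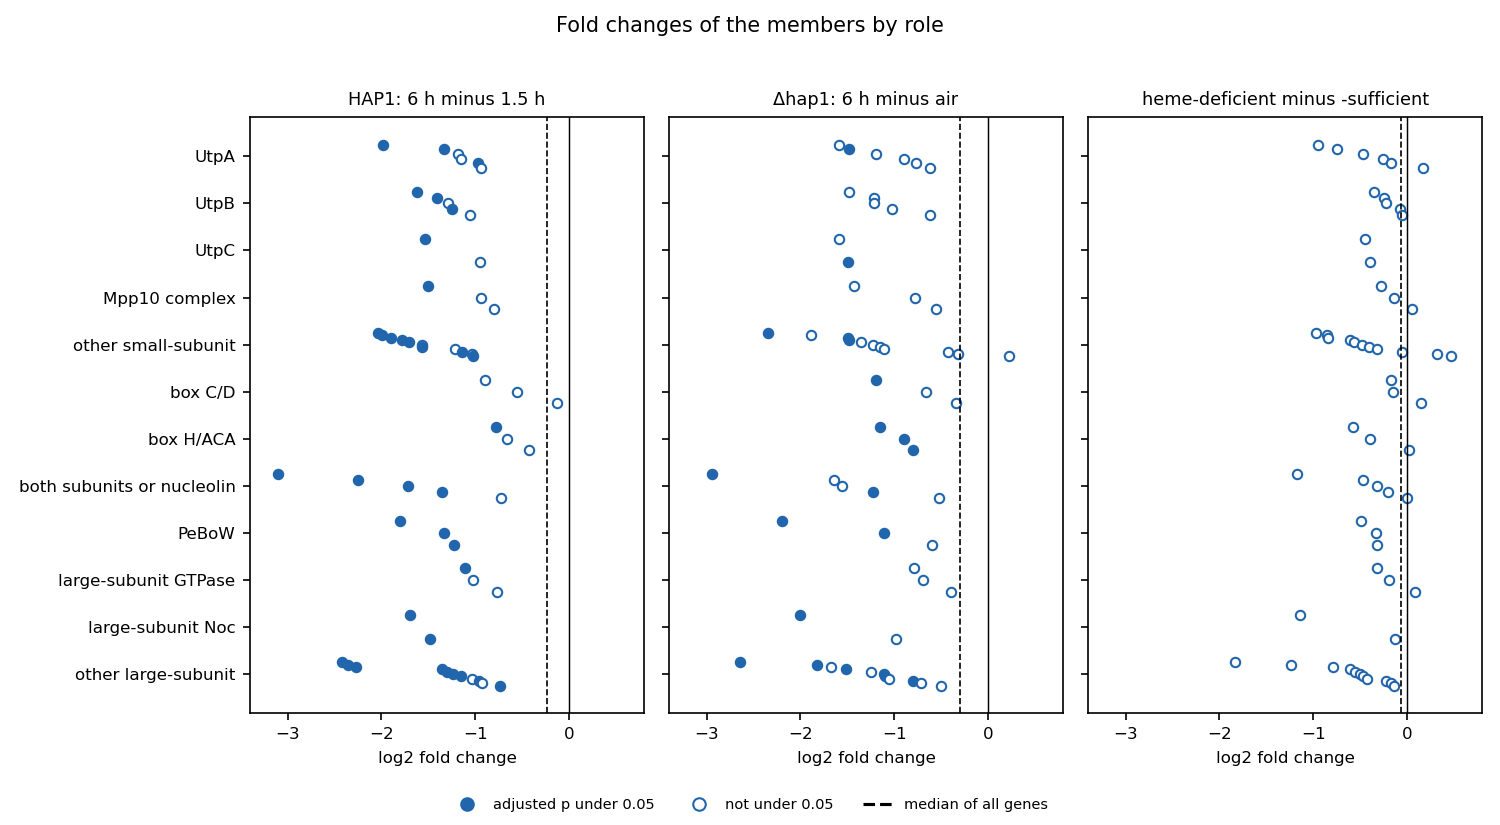
Log2 fold changes of the 57 members by role class for HAP1 cells at 6 h against 1.5 h, Δhap1 cells at 6 h against air, and heme-deficient against heme-sufficient cells. Filled points passed the adjusted threshold of 0.05 (36, 20 and 0 members), the solid line is at 0, and the dashed line is the median of all genes.

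Against air, the calls at each time were few. Both comparisons use the same 3 HAP1 air arrays, of which 1 stood apart. At 1.5 h 54 of 57 members had positive fold changes with a median of 0.53 (0.14 over all genes), yet 0 members passed limma's adjusted threshold, 0.0367% of all genes did, and 6 members and 857 of the 5449 genes had an unadjusted p under 0.05. The highest, chosen after their values were seen, were BUD23, the methyltransferase of small-subunit rRNA (1.56, SE 0.50, adjusted p = 0.258), RRP5 (1.39, SE 0.58, adjusted p = 0.279) and NOP4 (1.33, SE 0.61, adjusted p = 0.307). BUD23 was at 9.03, 10.01 and 9.93 in air, 11.44, 12.45 and 9.75 at 1.5 h and 9.14, 10.80 and 9.01 at 6 h, so its 2 highest values were on the replicate 1 and 2 arrays of 1.5 h.

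The 3 replicates at 1.5 h pointed in opposite directions. The median of the members against the same-numbered air array was 0.64 and 1.41 in replicates 1 and 2, with 56 and 54 members higher, and -0.41 in replicate 3, with all 57 lower. Replicate 3 is the one in which ANB1 and DAN1 did not stand at their anaerobic level. Without the replicate 3 array of 1.5 h, 4 members rose (9.03% of all genes were called) and the median was 0.86, and without all 3 doubtful replicate 3 arrays 3 members rose, EBP2 among them (1.63 by limma, adjusted p = 0.0466). The share of all genes under the second setting is not given here. These few calls are not read as a result about the members. Without the replicate 2 air array the median of the members was 0.23 and 0 were called. The 1.5 h fold changes also went with gene length, with r = 0.50 over the 57 members and 0.45 over all genes, and the part of length in these values was not tested.

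At 6 h against air the median of the members was -0.75 (-0.10 over all genes) and 56 of 57 were negative, but only NOP16 and BRX1 fell, in a comparison that called 2.15% of all genes, 1.32% as higher and 0.826% as lower (45 lower and 72 higher, or 46 lower and 127 higher with cyclic loess scaling). The 6 h arrays of 16 members lay wholly below the air arrays (7.62% of all genes did). NOP16 was at 11.40, 9.62 and 10.82 in air, so the 6 h arrays (given above) lay below all air arrays, and the fold change was -1.95 (SE 0.44, adjusted p = 0.0375). BRX1, a factor of large-subunit rRNA processing, was at 12.61, 12.73 and 12.58 at 6 h, against 13.40, 13.76 and 13.19 in air (-0.81, SE 0.20, adjusted p = 0.0499). By replicate the median of the members was -1.18, -0.05 and -0.97, and the second is that of replicate 2, whose air array had the lowest mean of the members. Without that array the median was -1.03 and 2 members were called, neither of them NOP16 or BRX1. Without the replicate 3 air array the median was -0.48, and with the hybridization round as the block it was -1.36 with 0 called. Between 0 and 7 members were called when other single arrays were left out, with 7 without the replicate 3 array of 1.5 h. There were 0 without the HAP1 air array of replicate 1 or 3, the 1.5 h array of replicate 1, the 6 h array of replicate 1 or 2, the Δhap1 air array of replicate 1 or 3, or the Δhap1 6 h array of replicate 2, and 1 without the 1.5 h array of replicate 2, the cobalt array of replicate 1, the Δhap1 air array of replicate 2 or the Δhap1 array of replicate 1 at 6 h. With no replicate block 0 members were called. These counts for left-out arrays stand without the shares of all genes and are not read as a result about the members. No air array of either genotype was hybridized in the same round as a 6 h array, so hybridization round and the 6 h treatment cannot be told apart within a replicate. The fit with the round as the block joins them only through the 1.5 h and cobalt arrays, some with doubtful labels.

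No member passed the test for the loss of HAP1. In air the median of the 57 was 0.16 in Δhap1 against HAP1 cells (0.11 over all genes), at 0.04, 0.51 and 0.03 by replicate and at -0.16 without the replicate 2 HAP1 air array. At 6 h without oxygen it was -0.20 (-0.08 over all genes), but 0.44, -0.15 and -0.72 by replicate, with 17, 42 and 56 members lower, and 0.01 without the Δhap1 array of replicate 3. The sign of both medians thus rests on single arrays. In each of the 2 comparisons limma called 0 members and 1 gene of 5449 (0.0184%), which was HAP1 itself. At an unadjusted p under 0.05 there were 0 members in both, with 76 genes in air and 83 at 6 h. The SE of a member's fold change ran from 0.18 to 0.62, and changes well above 1 SE could go uncalled. At 1.5 h against air, in the same fit, the largest value of a member, 1.56, was not called. These arrays thus do not show that the loss of HAP1 left the members unchanged.

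Δhap1 cells after 6 h without oxygen, set against Δhap1 cells in air, share no array with the comparison of 6 h and 1.5 h in HAP1 cells. Both come from the fit of all L51 arrays, with a shared replicate block and spread, so their calls are not independent. In Δhap1 cells the median of the members was -1.15 (-0.30 over all genes), 56 of the 57 were negative, and 25 had 6 h arrays wholly below the air arrays (13.9% of all genes did). Of the members, 20 fell and none rose, where 10.9% of all genes were called, 8.64% as lower and 2.24% as higher. With the further quantile scaling 7 members fell. Over all genes 175 were then lower and 255 higher, against 471 lower and 122 higher with the values as deposited. By replicate the median was -0.72, -0.89 and -1.52. The lowest replicate was the third, whose 6 h array had only 66.17% of probe sets above the S. pombe level.

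RRP14 was at 8.62, 6.92 and 6.69 in Δhap1 cells at 6 h, against 11.16, 8.84 and 11.05 in Δhap1 cells in air (-2.94, SE 0.62, adjusted p = 0.0173). All 3 arrays at 6 h lay below the air arrays. NOP16 was at 9.13, 7.32 and 7.35, against 11.49, 9.28 and 10.95 in air (-2.65, SE 0.44, adjusted p = 0.00698), likewise without overlap. Both were above the S. pombe level on 1 of the 3 arrays at 6 h. With values under that level set to it RRP14 was no longer called (-1.52, adjusted p = 0.116), and NOP16 was (-1.58, adjusted p = 0.0367), as were 12 members in all, each of them among the 20 (5.1% of all genes). ENP2, a nucleolar factor of small-subunit processing, was at 9.71, 7.89 and 9.37, against 12.11, 9.81 and 12.10 in air (-2.35, SE 0.47, adjusted p = 0.0137), and NOP7 at 10.69, 8.95 and 9.26, against 12.80, 10.89 and 11.81 in air (-2.20, SE 0.41, adjusted p = 0.0111). NOC2 fell by 2.00 (SE 0.50). ENP2 was above the S. pombe level on 2 of its 3 arrays at 6 h, and with values under that level set to it the fold change was -2.04. NOP7 and NOC2 were above the level on all 3, but close to it on 2. In replicates 2 and 3 NOP7 was at 8.95 and 9.26 and NOC2 at 8.93 and 9.11, against levels of 8.80 and 9.06.

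**Figure D3:**
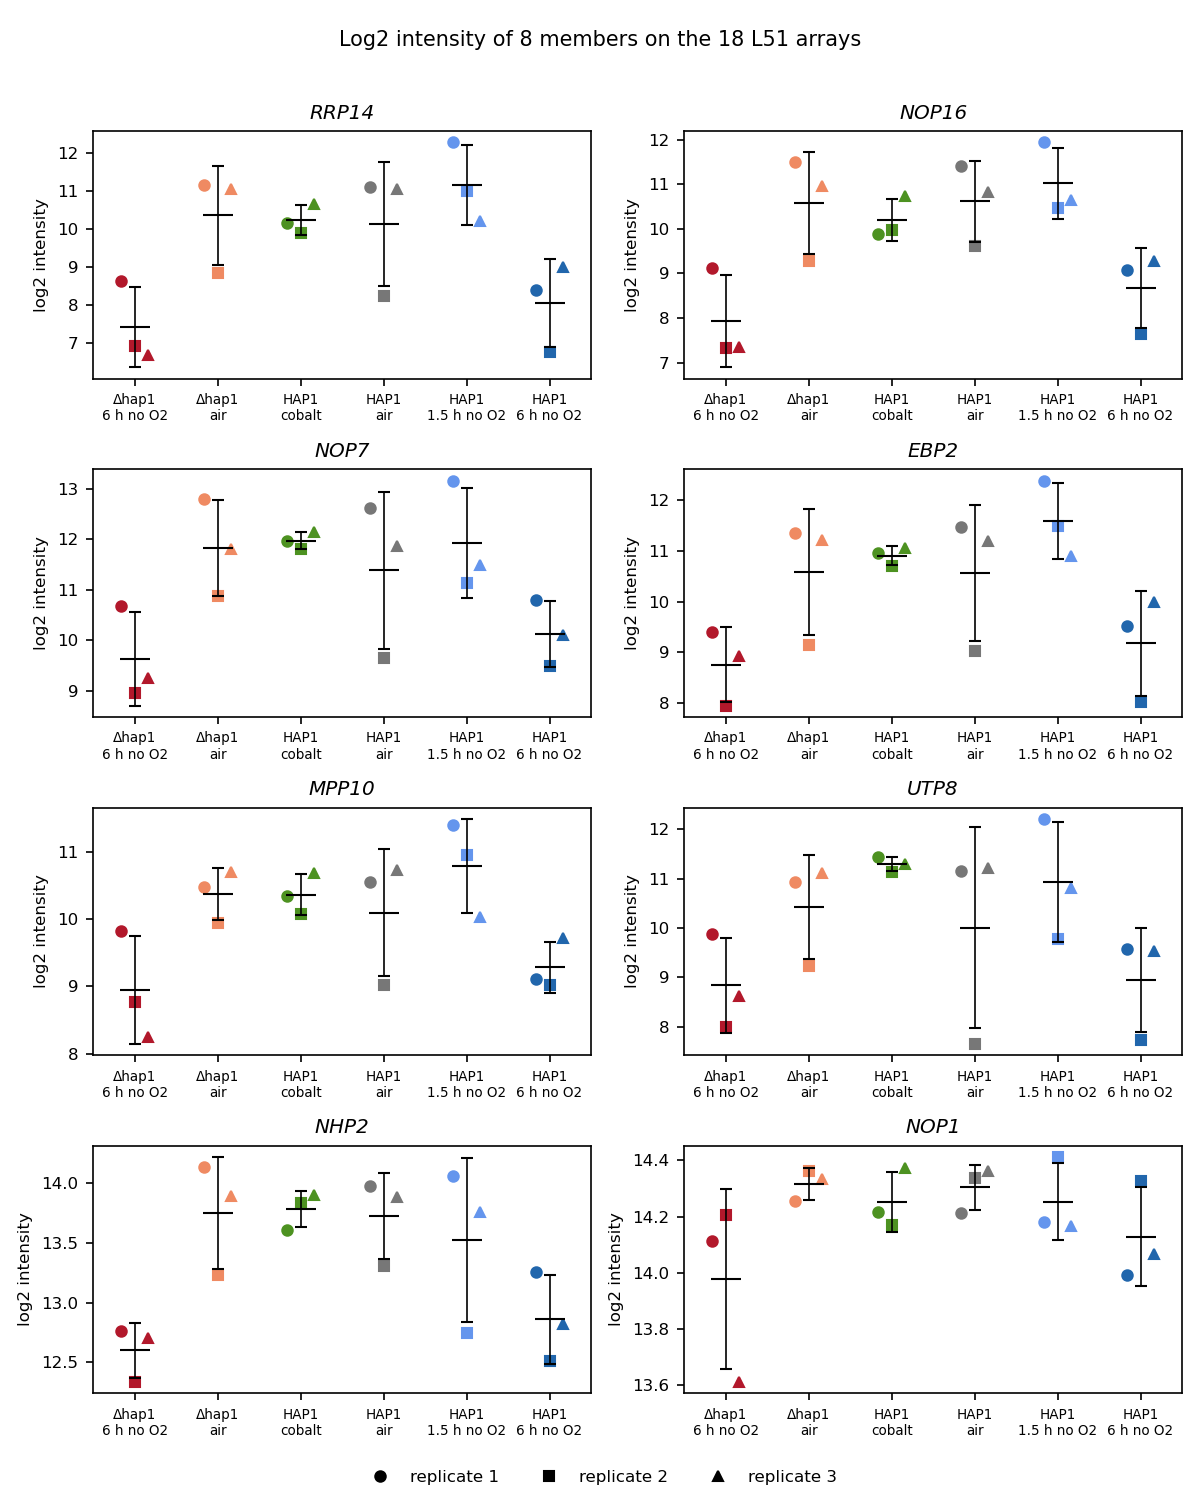
Log2 intensity of 8 members on the 18 L51 arrays, with a point per array shaped by replicate number and the mean and SD of the 3 arrays in black. RRP14, NOP16, NOP7 and EBP2 have their lowest means in the 6 h groups of both genotypes, NOP1 spans less than 1 log2 unit in all, and the replicate 2 air arrays (squares) often lie below the other air arrays.

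In Δhap1 cells the box H/ACA proteins were among the genes that fell. NHP2 was at 12.76, 12.33 and 12.70 at 6 h, against 14.13, 13.23 and 13.89 in air (-1.15, SE 0.24, adjusted p = 0.0153), and CBF5 (-0.90) and GAR1 (-0.80) fell as well, as did NOP56 of the box C/D particles (-1.19, SE 0.33). NOP1 was at 14.11, 14.21 and 13.61 at 6 h, against 14.25, 14.36 and 14.33 in air (-0.34, SE 0.18, adjusted p = 0.218). Among the processome genes MPP10 was at 9.82, 8.77 and 8.25 at 6 h, against 10.48, 9.95 and 10.69 in air (-1.42, SE 0.44, adjusted p = 0.0547), with the 6 h arrays below the air arrays though the threshold was missed. MPP10 was above the S. pombe level on 1 of these 3 arrays. In all, 5 of the 27 small-subunit genes, 9 of the 19 large-subunit genes, 4 of the 6 snoRNP proteins and 2 of the other 5 fell. BUD23 was the member with a positive value (0.22, SE 0.50, adjusted p = 0.783).

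Of the members called in the 2 comparisons, 15 were shared, which is 41.67% of the 36 called in HAP1 cells between 1.5 and 6 h and 75.0% of the 20 called in Δhap1 cells. Since 36 of the 57 members were called in the first comparison, much of this overlap follows from the counts alone. Whether 15 exceeds that was not tested. The fold changes of the 57 members in the 2 comparisons had a Pearson r of 0.71, against 0.67 over all genes, on arrays that were hybridized on the same days. The 20 calls, too, depended on the pairing and on single arrays. With no replicate block 0 members were called (0.863% of all genes). With the hybridization round as the block, which joins air and 6 h arrays only through the 1.5 h and cobalt arrays, 7 members were called (0.661% of all genes) with a median of -1.79. With only the 2 groups in the fit 30 were called (18.9% of all genes), 16 of the 20 among them. The count was 12, 8 and 0 when the Δhap1 6 h array of replicate 1, 2 or 3 was left out, and 1 and 2 when the Δhap1 air array of replicate 1 or 3 was. It was 13 when the HAP1 6 h array of replicate 2 was left out and 32 when the HAP1 air array of replicate 2 was. The shares of all genes are not set beside these left-out counts, which are not read as a result about the members. The Δhap1 6 h array of replicate 3, on which the count rests most, had fewer probe sets above the S. pombe level than any other L51 array.

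Against HAP1 cells in air, the control that the study used for these arrays, 12 members fell in Δhap1 cells at 6 h (7.05% of all genes were called and 4.61% were lower, as 251 lower and 133 higher, or 167 lower and 215 higher with quantile scaling), the median was -0.83, and 13 members did not overlap between the groups, all lower at 6 h (9.67% of all genes were). The difference of the 6 h change between Δhap1 and HAP1 cells was tested in the same fit. It had a median of -0.33 over the members (-0.06 without the replicate 2 HAP1 air array and -0.55 without the replicate 1 HAP1 array at 6 h) and -0.21 over all genes, and limma called 0 members and 0 of 5449 genes, with 0 members and 95 genes at an unadjusted p under 0.05. The member with the most negative difference was RRP7 (-1.26, SE 0.72, adjusted p = 0.931). The SE of this difference was 0.26 to 0.88 over the members, so these arrays do not show whether the factors fall alike with and without HAP1. The 12 calls became 33 without the replicate 2 HAP1 air array, 2 and 4 when that of replicate 1 or 3 was left out, and 6, 6 and 1 when the Δhap1 6 h array of replicate 1, 2 or 3 was. They became 3 with the hybridization round as the block (0.496% of all genes), with a median of -1.61. The fit with the round as the block joins air and 6 h arrays only through the 1.5 h and cobalt arrays. The counts for left-out arrays stand without the shares of all genes and are not read as a result about the members.

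With cobalt chloride, a mimic of hypoxia in many cells, the median of the members was 0.28 (0.05 over all genes), with 44 of 57 positive, limma called 0 members (0.147% of all genes) and 2 members and 554 of the 5449 genes had an unadjusted p under 0.05. UTP8 had the largest value, at 11.44, 11.14 and 11.31 with cobalt, against 11.17, 7.65 and 11.21 in air (1.29, SE 0.52, adjusted p = 0.472). The replicate 2 air array alone was low, and without it the median of the members was -0.01. UTP8 was under the S. pombe level on that array. The median was 0.20 without the doubtful replicate 3 cobalt array, 0.24 without all 3 doubtful arrays, 0.52 without the replicate 1 cobalt array and -0.17 with the hybridization round as the block. NOP7 (0.59, SE 0.41), EBP2 (0.35, SE 0.47) and MPP10 (0.27, SE 0.44) did not pass. Over the 57 members the cobalt fold change went with gene length (r = 0.58, against 0.18 over all genes), which was not tested further.

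In heme-deficient MHY100 cells 50 of the 57 members were lower than in heme-sufficient cells, by a median of -0.32 (-0.06 over all genes). As computed here, the 3' to 5' ratio of ACT1, the actin gene, was 2.05 to 2.54 on the MHY100 arrays. It was 1.07 to 1.22 on the L51 arrays. The ratios of all heme arrays lie above the limit past which the study says arrays were replaced. The part of RNA quality in the heme fold changes was not tested. The mean over the members was 7.82, 8.29 and 8.39 on the heme-deficient arrays, against 8.42, 8.67 and 8.57 on the heme-sufficient arrays, without overlap, and 19 members did not overlap between the doses, all lower in heme-deficient cells (16.7% of all genes were lower without overlap). Limma called 0 members at the adjusted threshold, against 1.64% of all genes and 1.24% as lower (70 lower and 23 higher, or 56 lower and 31 higher with quantile scaling), and 14 members and 1056 of the 5656 genes had an unadjusted p under 0.05. The median was -0.18 without the heme-deficient array of replicate 1, which had the lowest mean. With a replicate block 5 members were called and 7.21% of all genes, and with the hybridization round as a block, which leaves out a heme-deficient array with no recorded round, 14 members and 17.3% of all genes.

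NOP16 was at 5.92, 7.03 and 7.38 on the heme-deficient arrays, against 7.96, 9.13 and 8.75 on the heme-sufficient arrays, with no overlap and the smallest adjusted p of the members (-1.84, SE 0.42, adjusted p = 0.0862). RRP14 was at 6.46, 7.88 and 7.84, against 8.00, 8.94 and 8.77 in heme-sufficient cells (-1.18, SE 0.41, adjusted p = 0.223). NOC2 was at 3.08, 4.67 and 4.92, against 4.84, 5.63 and 5.64, 2 ranges that overlap (-1.14, SE 0.47, adjusted p = 0.25).

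At the other end, IMP4 (0.05, SE 0.15), NOP1 (0.14, SE 0.19), GAR1 (0.02, SE 0.17) and NOG2 (0.08, SE 0.14) were near 0 in heme-deficient cells, and ENP1 (0.32, SE 0.23) and BUD23 (0.47, SE 0.27) were above it. Of the lists, the 27 small-subunit genes had a median of -0.32, the 19 large-subunit genes -0.43 and the 6 snoRNP proteins -0.16. Over the 57 members the heme fold changes were set beside those of Δhap1 cells at 6 h against air. These come from another strain and array type, with the lower ACT1 ratios given above. The Pearson r was 0.73, against 0.43 over the 5240 genes on both arrays, and the Spearman values were 0.65 and 0.47. The members' fold changes also went with mean probe set level, with r = 0.53 in Δhap1 cells and 0.30 for heme (0.11 and -0.04 over all genes). The part of probe brightness in this correlation was not tested. UTP20, UTP22, NOP58 and NOG2 had more than 1 probe set on the MHY100 arrays. UTP20 had 10, whose differences ran from -0.89 to -0.00, and 5 of the 6 probe sets of UTP22 were negative and 1 was at 0.26.

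The narrower small- and large-subunit lists did not keep a constant distance. The mean of the 15 small-subunit genes minus that of NOP7, ERB1, YTM1 and EBP2 was -0.44, -0.49 and -0.15 on the HAP1 air arrays, -0.41, -0.17 and -0.26 at 1.5 h and 0.01, 0.20 and 0.10 at 6 h. The 6 h arrays thus lay above all air and 1.5 h arrays. In Δhap1 cells the difference was 0.25, 0.18 and 0.10 at 6 h, against -0.48, 0.03 and -0.06 in air, also without overlap. It was -0.27, -0.24 and -0.26 with cobalt, within the range of the air arrays. In MHY100 cells it was -0.47, -0.70 and -0.50 on the heme-deficient arrays, against -0.75, -0.77 and -0.75 on the heme-sufficient arrays, again higher without overlap.

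The medians of the fold changes ran the same way. They were -1.24 for the 15 small-subunit genes and -1.57 for the 4 large-subunit genes at 6 h against 1.5 h in HAP1 cells, -1.11 and -1.46 in Δhap1 cells at 6 h against air, and -0.26 and -0.41 for heme-deficient cells. The 4 genes spanned a wide range. At 6 h against 1.5 h NOP7 and EBP2 had fold changes of -1.80 and -2.42, while ERB1 and YTM1, at -1.22 and -1.34, were close to the small-subunit median. With all classes of each subunit taken (27 against 19 genes, a choice made after the values were seen) the L51 pattern did not hold. The difference was then -0.31, -0.53 and -0.17 at 6 h, against -0.35, -0.31 and -0.38 at 1.5 h, and -0.12, -0.63 and -0.38 in Δhap1 cells at 6 h, against -0.56, -0.44 and -0.37 in Δhap1 cells in air, with overlap in both. In heme-deficient cells it still held, at -0.19, -0.29 and -0.18, against -0.36, -0.45 and -0.41 in heme-sufficient cells. These are descriptions with no test.

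**Figure D4:**
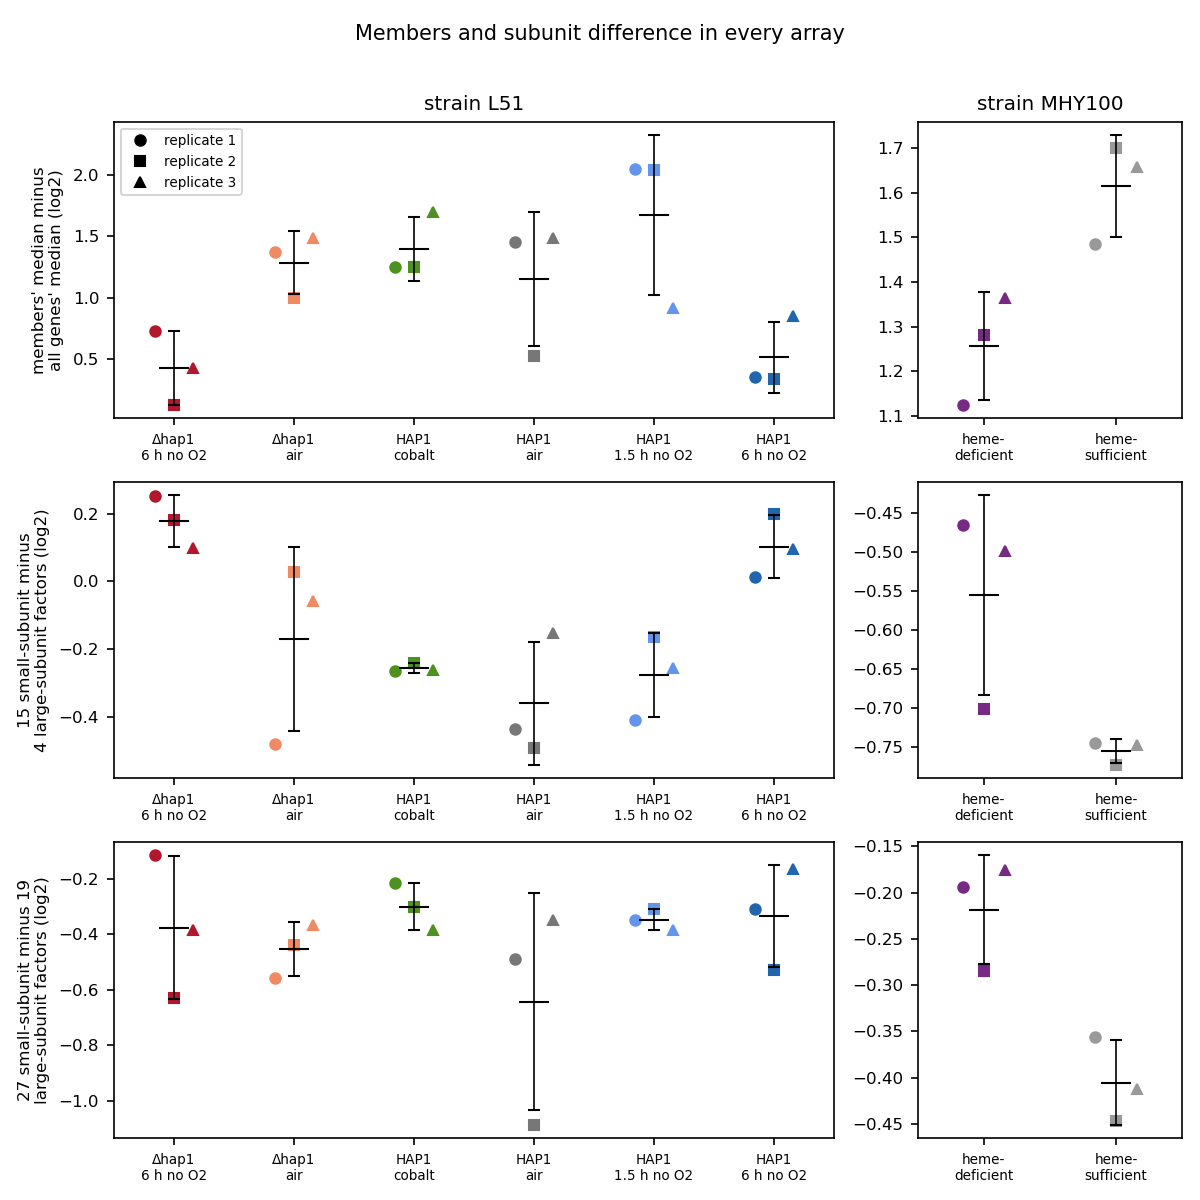
Measures per array for the 6 L51 conditions (left) and 2 heme doses (right), with the mean and SD in black: the members' median log2 minus that of all genes, the 15 small-subunit minus the 4 large-subunit genes, and the 27 small-subunit minus the 19 large-subunit genes. Within each genotype the middle row separates the 6 h arrays from the air and 1.5 h arrays, while the bottom row separates only the heme doses.

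The 87 other ribosome biogenesis factors on the L51 arrays had fold changes of the same direction and size. Their median was -1.32 at 6 h against 1.5 h, with 51 lower and none higher (638 of all 5449 genes were lower and 194 higher). It was -1.26 in Δhap1 cells at 6 h against air, with 36 lower and none higher (471 lower and 122 higher over all genes). UTP14, a processome subunit, had fold changes of -2.64 and -2.36 in the 2 comparisons, and FAF1, of small-subunit processing, -2.62 and -2.31, all called. ESF1, another small-subunit factor, fell by 2.52 at 6 h against 1.5 h, and NOP53, of late large-subunit assembly, fell by 2.45 in Δhap1 cells. None of these calls at 6 h against 1.5 h held with no replicate block. Those in Δhap1 cells were not followed without the block. At 1.5 h against air 82 of the 87 were positive with none called, and in heme-deficient cells 81 of 86 were negative with none called.

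Of 10 regulators of ribosomal genes, 3 fell at 6 h against 1.5 h and none rose, where 11.7% of all genes were lower and where 0 genes were called with no replicate block. They were IFH1, a coactivator of ribosomal protein genes (-1.35, SE 0.38, adjusted p = 0.0351), and TOD6 (-1.38, SE 0.38, adjusted p = 0.0327) and STB3 (-0.93, SE 0.28, adjusted p = 0.0423), repressors that bind promoter elements found in front of ribosome biogenesis genes. In Δhap1 cells at 6 h against air CRF1, a corepressor of ribosomal protein genes, rose (1.36, SE 0.27, adjusted p = 0.0137) and RAP1, their promoter-binding activator, fell (-1.18, SE 0.31, adjusted p = 0.0319). SFP1, an activator of the whole regulon, was at -0.45 in the first of these comparisons and at -0.21 in Δhap1 cells, and was not called in either.

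Of 16 genes of the general stress response 14 had positive fold changes at 6 h against 1.5 h, where all members were negative. Their median was 0.79, with HXK1 and PGM2 higher and none lower, 0.55 in Δhap1 cells at 6 h against air with none called, and -0.25 at 1.5 h against air with none called. Their mean level was 9.11, 9.22 and 10.41 on the 1.5 h arrays, highest on the doubtful replicate 3 array, and 10.92, 10.21 and 10.27 at 6 h. In heme-deficient cells their median was -0.07 and CTT1, the cytosolic catalase, fell by 1.88. The part of growth state or stress in the members' levels was not tested.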

How the data were processed

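Per the labels, the authors used GCOS and RMA, and the value they deposited is an intensity on a linear scale. The versions are not given in the labels. Each table was normalized on its own by the authors. RMA, per the paper, includes a quantile-based normalization. The quantile and cyclic loess scalings given here were thus a second step, over S. cerevisiae probe sets only. Here log2 was taken with no offset, probe sets of 1 gene were reduced to the brightest, and no value was filtered. On the L51 arrays 13 members were under the 95th percentile of the S. pombe probe sets on at least 1 array. The study describes independently grown batches per condition and says that a replicate used a different strain, which the labels do not identify.

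Fits were made in R 4.3.3 by limma 3.58.1 and statmod 1.5.0, with Benjamini-Hochberg adjustment over all genes and a threshold of 0.05. They were also run on simulated data whose noise was drawn separately for each gene. Those data held no shift shared by the genes of an array, so they do not show how the fits handle such shifts. All 18 L51 arrays were fitted together with the replicate number as a block, because the study's fold changes set same-numbered arrays against each other and these arrays share a hybridization day. Same-numbered arrays, as deviations from their groups, had median pairwise correlations of 0.56, 0.71 and 0.25 in replicates 1 to 3, the lowest pairs being at -0.09, -0.38 and -0.44. No block was used for the 6 heme arrays, since an array carries replicate 1 in its title and replicate 3 in its source name. The cobalt arrays are called HAP1 by title and source, although a description names the empty plasmid.

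The members, the gene lists and the role classes were chosen with earlier results of these data known. Members given with values are the 5 largest rises and falls per comparison that agree in all replicates, 10 genes always given (IMP3, IMP4, MPP10, NOP7, ERB1, YTM1, EBP2, NOP1, NSR1 and CBF5), and the most and least changed of each role class. Genes that are no members were chosen for display after their values were seen. Alternatives were other scalings, offsets, filters, blocks, array weights and left-out arrays. Promoter motifs were planned and not run, as no promoter sequences were at hand. The array number limits the precision.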

Additional observations from a re-analysis of the deposited data

Results flagged for a closer look

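The change of the members without oxygen differed between 6 and 1.5 h, by the test of that difference within 1 fit, for 36 of the 57. Of the members given with values, the log2 difference of 6 h minus 1.5 h was -3.10 for RRP14, -2.42 for EBP2, -2.35 for NOP16, -2.27 for NOP4, -2.25 for RRP5 and -2.03 for NOP14. It was -1.98 for UTP8, -1.80 for NOP7, -1.69 for NOC2, -1.62 for DIP2, -1.54 for UTP22 and -1.50 for MPP10. It was -1.48 for NOC3, -1.34 for YTM1, -1.24 for UTP18, -1.22 for ERB1, -1.11 for NUG1, -0.78 for GAR1 and -0.73 for BRX1. None of these calls held with no replicate block, or without the replicate 1 or 2 array of either time.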

How the results depend on the processing

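The replicate block decided the calls on the L51 arrays. With no replicate block 0 members were called in each of the 9 L51 comparisons, against 36 at 6 h against 1.5 h, 20 in Δhap1 cells at 6 h against their own air arrays, 12 against HAP1 cells in air and 2 in HAP1 cells at 6 h against air in the fit with it. With only the groups compared in the fit, the counts were 0 at 6 h against 1.5 h, 30 in Δhap1 cells against their own air, 1 for Δhap1 cells against HAP1 air and 0 for HAP1 cells against air. In heme-deficient cells the block gave 5 calls in place of 0.

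With the hybridization round as the block the counts were 10 at 6 h against 1.5 h, 7 in Δhap1 cells against their own air, 3 against HAP1 air, 0 in HAP1 cells at 6 h against air and 14 in heme-deficient cells, fewer on the L51 arrays although the medians of the first 4 were larger in size (-1.58, -1.79, -1.61 and -1.36). No air array shared a round with an anaerobic 6 h array, so this fit joins them only through the 1.5 h and cobalt arrays. Of these, the replicate 3 arrays have labels in doubt. Setting values under the S. pombe level to it, added after the data were seen, gave 12 in Δhap1 cells against their own air. Quantile scaling gave 23 at 6 h against 1.5 h and 7 in Δhap1 cells against their own air, and cyclic loess 21 and 8, with 1 at 6 h against air. Quantile scaling put the median of all genes at 6 h against 1.5 h at -0.03 and that of the members at -1.08. With the values as deposited they were -0.23 and -1.23. The members' median kept its sign under both scalings in every comparison. Array weights, which ran from 0.16 to 7.16 on the L51 arrays, gave 32 at 1.5 h against air, 54 at 6 h against air, 55 at 6 h against 1.5 h, 50 in Δhap1 cells against each control and 1 in heme-deficient cells. The HAP1 air arrays had weights of 7.16, 0.16 and 2.95 in replicates 1 to 3, so the second counted for little. The replicate 3 array of 1.5 h was at 0.16. The members' median was then 0.60 at 1.5 h and -0.96 at 6 h against air. Shares of all genes are not given beside these counts, which are not read as a result about the members. Leaving dim genes out gave 1 at 6 h against air. Without the 3 doubtful replicate 3 arrays 3 members were called at 1.5 h and 6 at 6 h against air, again with no share of all genes beside them.

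Leaving out a single array or a whole replicate (single arrays were added after the data were seen) gave 0 to 4 calls at 1.5 h against air, 0 to 7 at 6 h against air, 0 to 50 at 6 h against 1.5 h, 0 to 32 in Δhap1 cells against their own air and 0 to 33 against HAP1 air. Without replicate 1 the count was 0 in every L51 comparison. It stayed at 0 for cobalt, for Δhap1 against HAP1 cells in air and at 6 h, for the difference of the 6 h change and for heme. The ranges for left-out arrays stand without the shares of all genes and are not read as a result about the members. Of the called members given with values, none changed its sign under any alternative. The signs of the other called members were not followed, and the cause of the lost calls was not tested.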
